A study of Mus musculus with 12 samples.

Results

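Intrinsic apoptosis is the form of programmed cell death that is decided at the mitochondrion. The 9 genes described here were chosen by name as central members of that pathway: Bcl2, Bcl2l1 and Mcl1, which protect cells, and Bax, Bak1, Bcl2l11, Bbc3, Apaf1 and Casp9, which promote death. All 9 symbols were found once in each of the 3 expression tables, among 25834 genes listed at all 3 ages, and all 9 passed the filter on low values that left 15734 genes for testing. From P0 to P14, 7 of the 9 fell, among them all 3 protective genes and the death genes Bcl2l11, Bbc3, Apaf1 and Casp9. Bax, at 49.8, 52.96 and 51.5 scaled CPM on average at the 3 ages, passed no test, and Bak1 passed it only against P28.

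The libraries held polyadenylated RNA of cortical nuclei from male mice, taken on the day of birth (P0) or 14 (P14) or 28 (P28) days later and making 4 biological replicates at each. Every animal was CAG-Sun1/sfGFP +/-; NEX-Cre +/-, so all groups carried the nuclear tag and Cre and none lacked either. Library names at P0 and P14 also carried the letters WT, and those at P28 did not. The names of P0 replicate 1 and P28 replicate 4, called the merged libraries below, held the word merged, which was not explained in the sources used here. Nuclei were captured by INTACT, an immunopurification in which Cre switches on a GFP-tagged nuclear envelope protein, and NEX-Cre is known for its activity in excitatory neurons of the forebrain. The RNA is that of nuclei, not of whole cells, and whether a replicate was 1 animal or a pool was not given in the sources used here.

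In a cell under stress, BH3-only proteins such as BIM (from Bcl2l11) and PUMA (from Bbc3) bind the protective BCL2 proteins and activate BAX and BAK. These effectors open the outer mitochondrial membrane, cytochrome c escapes, and APAF1 assembles with it into the apoptosome, which activates caspase-9. In the developing cortex the pathway removes surplus progenitors and young neurons, and mature neurons are known to enter it less readily.

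The start sites of the BH3-only genes Bcl2l11 and Bbc3 and of the effector Bax are shown because the first 2 fell from P0 to P14 while the third passed no test on the common scale. Each line holds the 250 bases before a RefSeq start site (GRCm38.p6), 5′ to 3′ in the direction of the gene: chr2:128125788-128126037 (plus strand) for 1 of the 2 start sites of Bcl2l11, chr7:16310011-16310260 (plus strand) for 1 of the 3 start sites of Bbc3, and chr7:45466899-45467148 (minus strand) for Bax. Capitals mark the FOXO word GTAAACA or its reverse complement in Bcl2l11 and Bbc3, and a p53 half-site followed by the E-box CACGTG in Bax. For Bcl2l11 and Bbc3 the start site shown is the only one whose window holds GTAAACA. Other words counted below, such as the GC box found in each line, are not marked.
Bcl2l11: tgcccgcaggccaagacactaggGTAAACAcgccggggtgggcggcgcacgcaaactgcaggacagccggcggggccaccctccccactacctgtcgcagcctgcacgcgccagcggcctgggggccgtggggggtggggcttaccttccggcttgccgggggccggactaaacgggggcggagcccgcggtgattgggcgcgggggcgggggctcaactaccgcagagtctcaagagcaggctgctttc
Bbc3: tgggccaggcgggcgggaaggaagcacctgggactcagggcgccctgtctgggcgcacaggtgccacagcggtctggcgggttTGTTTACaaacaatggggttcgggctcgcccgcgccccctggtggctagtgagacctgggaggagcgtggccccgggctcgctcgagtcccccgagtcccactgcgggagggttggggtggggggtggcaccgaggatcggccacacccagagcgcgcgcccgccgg
Bax: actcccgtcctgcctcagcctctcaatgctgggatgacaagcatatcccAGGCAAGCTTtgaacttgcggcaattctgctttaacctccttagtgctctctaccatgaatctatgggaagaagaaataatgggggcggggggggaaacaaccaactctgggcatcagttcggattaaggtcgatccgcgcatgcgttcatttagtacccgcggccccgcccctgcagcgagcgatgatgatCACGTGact

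Searched on both strands over all windows of this length in the same table, GTAAACA was found for 3.54% of 27025 genes and, among the members, for Bcl2l11 and Bbc3. The p53 half-site was found for 8.20% of genes and, among the members, for Bax, and CACGTG for 6.86% of genes and for Bax and Bbc3. The GC box GGGCGG was found for 7 of the 9 members, all but Bak1 and Bcl2l1, against 35.4% of all genes. The CRE core TGACG was found for Bcl2 and Bbc3 against 19.8% of genes, CCAAT for Bcl2l11 and Bbc3 against 37.5%, and an E2F word (TTTCCCGC or TTTGGCGC) for 0 members against 1.51%. A gene counted if any of its windows matched, and Bbc3 and Bcl2l1 had 3 windows, Bcl2l11 2 and the other members 1. The shares are over all genes with a window, expressed here or not, so they do not measure enrichment among the members. These are matches of letters and were not tested against the changes with age.

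P0 libraries held 13195973 to 16599217 reads, P14 libraries 25486861 to 33611769 and P28 libraries 21569262 to 31215435. Each age had been normalized separately by the authors, so levels below are in scaled CPM: CPM, reads relative to the library's total, over the shared genes, brought to a common scale by a median-of-ratios factor over all 12 libraries. A count of 3 reads corresponded to 0.0858 to 0.236 scaled CPM, far below every member. P14 replicate 2 stood apart, with a mean correlation of 0.951 with the other libraries of its age against 0.976 to 0.981 for the other P14 libraries. It also had the lowest summed level of the P14 libraries for each of 9 lists of cell type and maturation markers. Where leaving it out changed a member's call, a count of calls given for a list, or a ratio, the value without it is given too. Changes are log2 differences of (scaled CPM + 0.5) ± SE from limma, with p adjusted over all 15734 genes. Without rescaling, the deposited values shifted the median of all genes by 0.465 between P0 and P14 and by -0.196 between P14 and P28 on the log2 scale.

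The share of genes that changed was large between the first ages. From P0 to P14, 68.9% of the tested genes passed the threshold, with 34.5% falling and 34.4% rising. Of the 9 members 7 fell and 0 rose with limma, and 0 rose at an unadjusted p under 0.05, with edgeR or with DESeq2. The median member changed by -0.88, beside 0.01 over all genes tested. Every P14 library lay below every P0 library for the same 7 members, which was so for 30.2% of genes tested (59.3% in either direction). From P14 to P28 2 members fell (Bak1 and Bcl2l11), against 9.09% of tested genes falling and 9.22% rising. For both the libraries of P28 and P14 did not overlap, as for 27.4% of genes tested (13.2% lower at P28). Again 0 rose with limma, at an unadjusted p under 0.05, with edgeR or with DESeq2. From P0 to P28 8 of 9 fell, all but Bax, against 35.6% of tested genes falling and 71.2% changing, and 7 did not overlap, against 71.2% of genes tested (35.7% lower at P28).

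**Figure D1:**
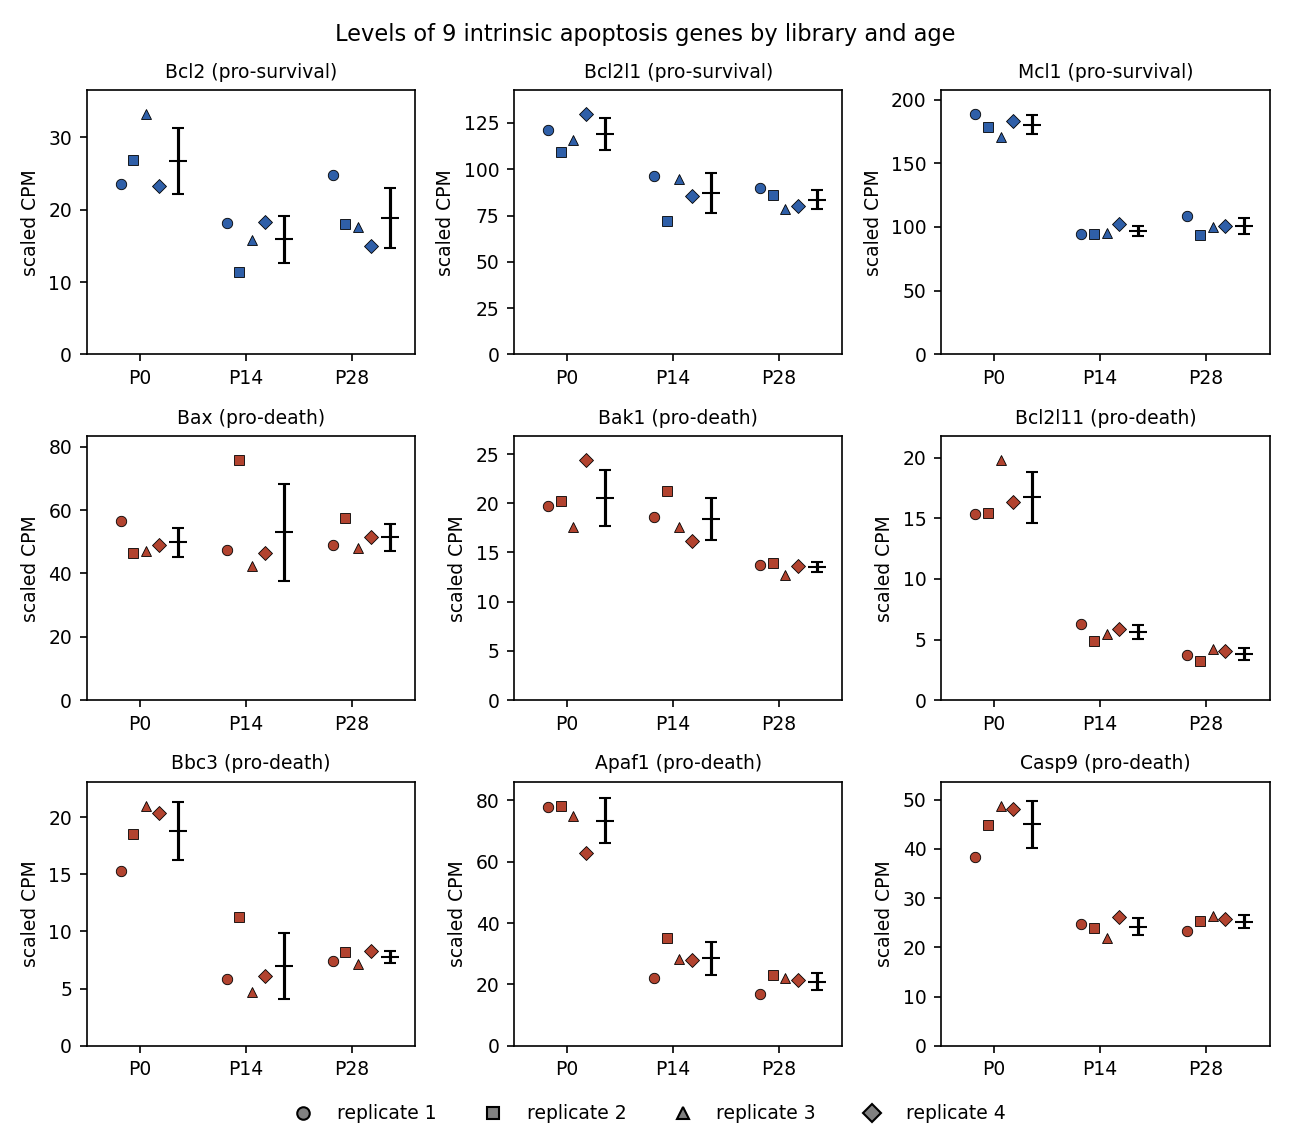
Level of each of the 9 members in each library (points, scaled CPM, axes starting at 0) at P0, P14 and P28, with the mean of 4 libraries and its SD. Bax sits near 50 at all ages with 1 high P14 library, while Bcl2l11 goes from 15.4 to 19.8 at P0 to 3.21 to 4.22 at P28.

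Mcl1, a short-lived protective protein that cortical progenitors and young neurons depend on, was at 188, 179, 170 and 183 scaled CPM in the 4 P0 libraries. At P14 it was at 94.7, 94.7, 95.5 and 103, and at P28 at 109, 93.3, 99.99 and 101. The P0 libraries lay far above all others, and those of P14 and P28 overlapped. Mcl1 fell by 0.89 ± 0.07 on the log2 scale from P0 to P14 (adjusted p = 2.05e-07). After P14 the change was 0.06 ± 0.07 (adjusted p = 0.634).

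Bcl2l1, which encodes the neuronal survival factor BCL-XL and also a shorter form that gene counts cannot separate, stood at 121, 110, 116 and 130 scaled CPM at P0. The P14 libraries had 96.1, 72.3, 94.6 and 85.8, and those of P28 had 89.9, 86.0, 78.4 and 80.2. All later libraries were below all P0 libraries, and the lowest P14 value was that of replicate 2. Bcl2l1 fell by 0.45 ± 0.10 from P0 to P14 (adjusted p = 0.00120), although on the deposited values without rescaling the difference was 0.03 (adjusted p = 0.811). Later it differed by -0.05 ± 0.10 (adjusted p = 0.742, 95% interval -0.27 to 0.16).

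Bcl2, the founding protective gene of the family, had 23.6, 26.8, 33.2 and 23.3 scaled CPM at P0. It had 18.1, 11.4, 15.8 and 18.3 at P14 and 24.8, 17.97, 17.7 and 15.0 at P28. The P0 and P14 libraries did not overlap, but the highest P28 library lay within the range of P0. Bcl2 fell by 0.74 ± 0.18 from P0 to P14 (adjusted p = 0.00283), a call lost on the deposited values. The P28 level was below that of P0 by -0.50 ± 0.18 (adjusted p = 0.0257), and this call was lost in 7 of 29 alternatives, with P0 replicate 2 or 3 or P28 replicate 2, 3 or 4 left out, on the deposited values, and without both merged libraries. The difference between P28 and P14 was 0.24 ± 0.18 (adjusted p = 0.386).

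Among the effectors, Bax was at 56.7, 46.5, 47.2 and 48.8 scaled CPM at P0, at 47.4, 75.8, 42.3 and 46.35 at P14, and at 49.0, 57.5, 48.0 and 51.4 at P28. The 3 ages overlapped, and the 1 value above 60 was that of P14 replicate 2. The difference between P14 and P0 was 0.05 ± 0.15 (adjusted p = 0.770), with a 95% interval of 0.824-fold to 1.31-fold. Without P14 replicate 2 it was -0.13 (adjusted p = 0.220). Between P28 and P14 it was 0.00 ± 0.15 (adjusted p = 0.985), and 0.18 without that library (adjusted p = 0.174). On the deposited values without rescaling Bax was higher at P14 than at P0 by 0.53 (adjusted p = 0.00619), so the absence of a call rests on the common scale.

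Bak1, the other effector, for which neurons are known to make a splice form of their own, was at 19.8, 20.3, 17.6 and 24.4 scaled CPM at P0. It was at 18.6, 21.2, 17.5 and 16.2 at P14 and at 13.7, 13.9, 12.8 and 13.6 at P28. P0 and P14 overlapped, and every P28 library was below every earlier one. The difference between P14 and P0 was -0.15 ± 0.12 (adjusted p = 0.284) and became 0.32 on the deposited values (adjusted p = 0.0246). Bak1 fell by 0.43 ± 0.12 from P14 to P28 (adjusted p = 0.0275). This call was lost in 7 of 29 alternatives, among them the omission of P14 replicate 1 or of any 1 of the P28 libraries, with adjusted p from 0.00211 to 0.0784. The span of Bak1 overlaps that of Ggnbp1, which averaged 6.61, 5.92 and 4.23 scaled CPM at the 3 ages.

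Both BH3-only genes among the members fell after birth. Bcl2l11, which is known to be induced in neurons deprived of trophic factor, was at 15.4, 15.5, 19.8 and 16.4 scaled CPM at P0, at 6.27, 4.86, 5.50 and 5.90 at P14 and at 3.69, 3.21, 4.22 and 4.09 at P28, with 78 to 255 reads behind each value. No library of 1 age overlapped those of another. Bcl2l11 fell by 1.49 ± 0.14 from P0 to P14 (adjusted p = 5.72e-07) and by 0.51 ± 0.14 from P14 to P28 (adjusted p = 0.0229). At P28 its fitted level, with the 0.5 scaled CPM added to each value, was 25.0% of that at P0. The second call was lost in 5 of 29 alternatives, without P14 replicate 1 or 4, P28 replicate 1 or 2, or both merged libraries, with adjusted p from 0.00173 to 0.0730.

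Bbc3, a target of p53 that encodes PUMA, was at 15.3, 18.5, 21.0 and 20.3 scaled CPM at P0. It was at 5.82, 11.2, 4.74 and 6.08 at P14 and at 7.39, 8.16, 7.18 and 8.27 at P28. The high P14 value was that of replicate 2, and the other 3 P14 libraries lay below all of P28. Bbc3 fell by 1.43 ± 0.21 from P0 to P14 (adjusted p = 4.07e-05). The difference between P28 and P14 was 0.21 ± 0.21 (adjusted p = 0.505) with all libraries and 0.45 without P14 replicate 2 (adjusted p = 0.0276), so that 1 library decided whether a rise was called.

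At the apoptosome, Apaf1 had 77.9, 78.2, 74.9 and 62.8 scaled CPM at P0, 22.2, 35.2, 28.4 and 28.1 at P14, and 16.95, 23.1, 22.3 and 21.4 at P28. The P0 libraries were all above 60 and the later ones all below 36, with 1 P14 library within the range of P28. Apaf1 fell by 1.36 ± 0.14 from P0 to P14 (adjusted p = 1.58e-06). The later difference of -0.43 ± 0.14 missed the threshold (adjusted p = 0.0512) and passed it in 11 of 29 alternatives, edgeR, DESeq2 and the omission of P14 replicate 1 among them, with adjusted p from 0.00595 to 0.146. At P28 the fitted level, with the 0.5 scaled CPM added to each value, was 28.9% of that at P0.

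Casp9, the initiator caspase that APAF1 activates, had 38.4, 44.8, 48.7 and 48.2 scaled CPM at P0. It had 24.6, 23.8, 21.98 and 26.3 at P14 and 23.3, 25.3, 26.3 and 25.8 at P28. Its P0 libraries stood above all others, and P14 and P28 overlapped. Casp9 fell by 0.88 ± 0.10 from P0 to P14 (adjusted p = 4.21e-06), and the difference between P28 and P14 was 0.06 ± 0.10 (adjusted p = 0.715).

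**Figure D2:**
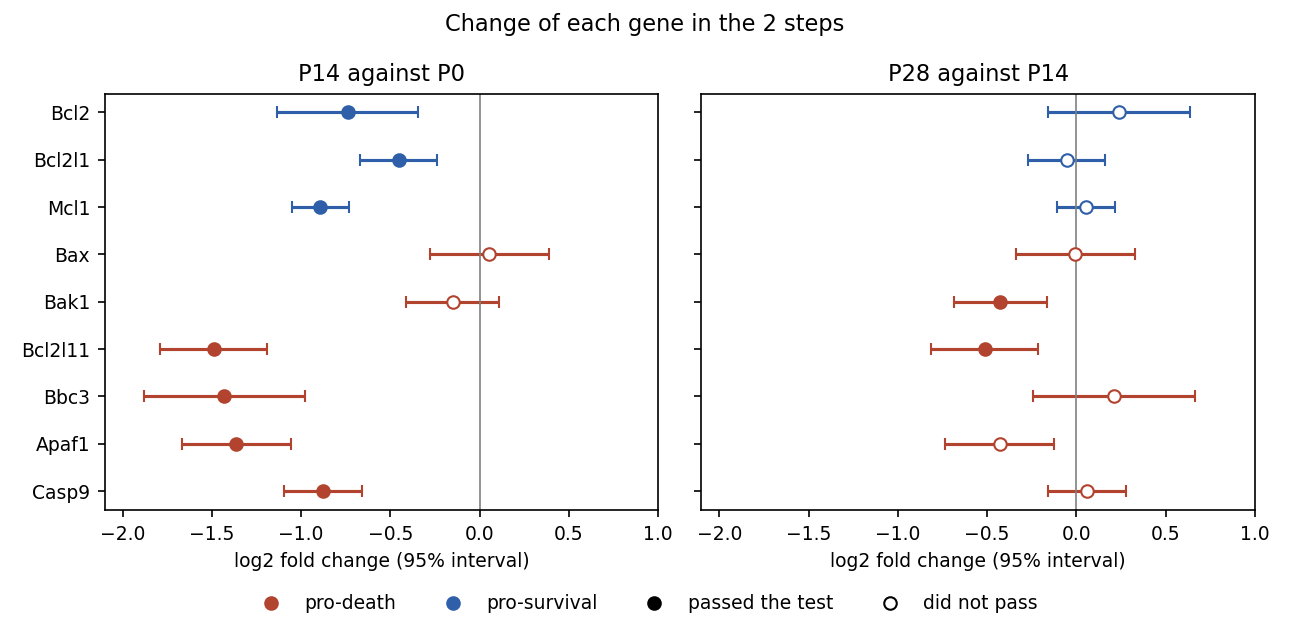
Log2 difference of each member (points) with its 95% interval for P14 against P0 and P28 against P14. In the first comparison only the intervals of Bax and Bak1 reach 0, and in the second most members lie near 0 while Bak1, Bcl2l11 and Apaf1 lie below it, Apaf1 with an adjusted p above the threshold (0.0512).

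Ratios of a death gene to a protective gene did not all move 1 way with age. A ratio does not depend on the scaling between libraries. Ratios and sums here are of scaled CPM not divided by exon length, so the sign of a ratio does not rank its 2 genes. Per kilobase Bax lay above Bcl2l1 at each age, at 37.2 against 25.2 at P0. On the log2 scale the ratio of Bax to Bcl2l1 was -1.26 ± 0.13 (SD, n = 4) at P0, -0.75 ± 0.56 at P14 and -0.70 ± 0.13 at P28. Its P14 libraries ran from -1.16 to 0.07, the highest being replicate 2, and without it their mean was -1.02 ± 0.14 (SD, n = 3). The ratio of Bax to Bcl2 was 0.91 ± 0.33, 1.72 ± 0.68 and 1.47 ± 0.35 at the 3 ages, with 2.74 in P14 replicate 2 and 1.38 ± 0.04 in the other 3 libraries of P14. The ratio of Bcl2l11 to its partner Bcl2l1 went the other way, from -2.84 ± 0.20 at P0 to -3.95 ± 0.11 at P14 (-3.97 ± 0.12 without replicate 2) and -4.47 ± 0.25 at P28. The ratio of Bak1 to Mcl1, which holds BAK in check, was highest at P14, at -2.40 ± 0.21 (-2.48 ± 0.16 without replicate 2) against -3.14 ± 0.17 at P0 and -2.90 ± 0.11 at P28. The 6 death genes together gave 40.8 ± 1.03% of the summed level of the 9 members at P0, 40.5 ± 5.79% at P14 and 37.7 ± 2.68% at P28. The P14 share was 49.1% in replicate 2 and 36.9 to 38.4% in the other 3 libraries, whose mean was 37.6 ± 0.76%. The shares count long genes more, and shares per kilobase were not computed and can move another way. Per kilobase the highest member was Mcl1 at P0 (51.7) and Bax at P28 (38.4). No test is given for these ratios and shares, which are described by library only.

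**Figure D3:**
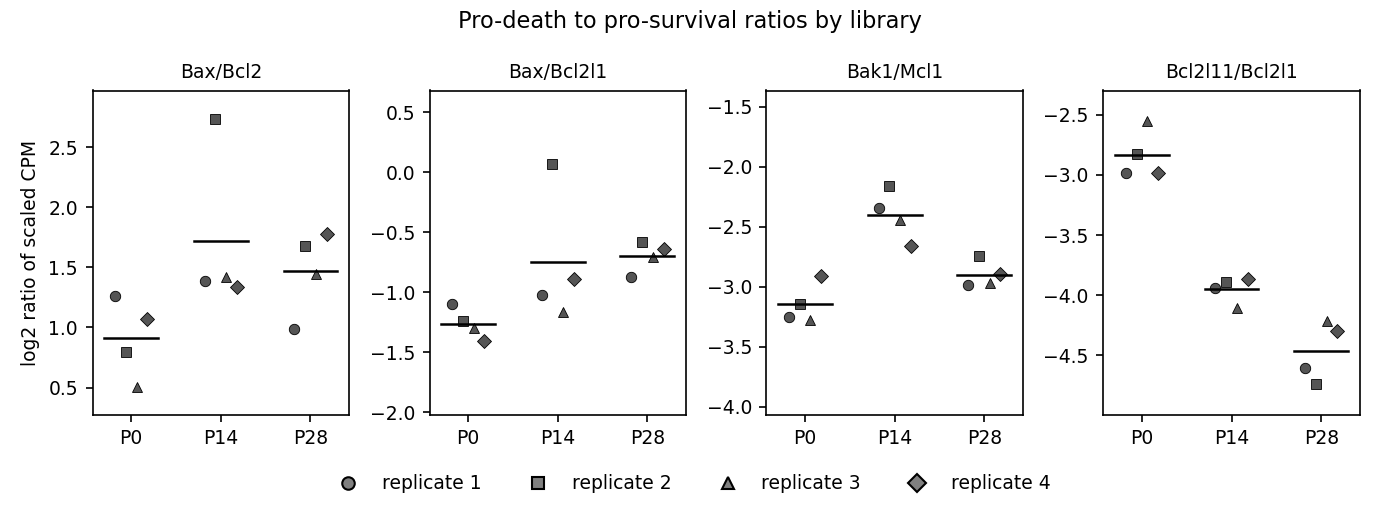
Log2 ratio of a death gene to a protective gene in each library (points), not divided by exon length, with the mean of 4 libraries at each age (line). Bax against Bcl2l1 lies higher at P28 (-0.70) than at P0 (-1.26), while Bcl2l11 against Bcl2l1 lies lower (-4.47 against -2.84).

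Levels of different genes were compared per kilobase of exon. At P0 Mcl1 led with 51.7 ± 2.17 scaled CPM per kilobase (SD, n = 4), followed by Bax with 37.2 ± 3.5 and Bcl2l1 with 25.2 ± 1.79. Bbc3 (9.35), Casp9 (8.66), Bak1 (8.52) and Apaf1 (8.14) came next, each overlapping its neighbour, and Bcl2 (3.72) and Bcl2l11 (2.09) were lowest. At P14 and P28 the order began with Bax (39.6 ± 11.5 and 38.4 ± 3.17), Mcl1 (27.8 and 28.9) and Bcl2l1 (18.4 and 17.7), whose libraries did not overlap. Bak1 followed at both ages, at 7.64 and 5.61. Casp9, Bbc3, Apaf1 and Bcl2 overlapped in turn at P14 (4.65, 3.47, 3.16 and 2.21), and at P28 Bcl2 and Apaf1 overlapped (2.62 and 2.32). Bcl2l11 was lowest at each age, at 0.702 at P14 and 0.474 at P28.

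Most of the other BCL2 family genes fell from P0 to P14, and the protective gene Bcl2l2 rose. Of 18 listed, 15 were in the tables and 11 passed the filter. From P0 to P14 3 rose and 7 fell (4 on the deposited values, 6 without P14 replicate 2), with a median of -0.62. For this list and those below, the share of all genes tested was 34.4% rising and 34.5% falling from P0 to P14. From P14 to P28 it was 9.22% rising and 9.09% falling. Bcl2l2, which encodes the protective BCL-W, was at 60.7, 49.7, 44.4 and 29.2 scaled CPM at P0 and at 97.9, 205, 81.7 and 132 at P14. Its P28 libraries had 110, 94.99, 96.1 and 97.3, so every later library lay above every P0 library. Bcl2l2 rose by 1.44 ± 0.26 from P0 to P14 (adjusted p = 2.15e-04). Per kilobase it averaged 15.2 ± 4.32 at P0, below Bcl2l1, and 32.8 ± 2.27 at P28, above Bcl2l1.

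Among the BH3-only genes outside the member list, Bmf had the largest fall, from 13.5 to 25.5 scaled CPM at P0 to 1.89 to 5.17 at P14, a change of -2.33 ± 0.25 (adjusted p = 1.87e-06). Bid, which links death receptors to mitochondria, fell by 0.95 ± 0.15. Pmaip1, which encodes NOXA, fell by 0.62 ± 0.20 (adjusted p = 0.0133), a call lost on the deposited values (adjusted p = 0.286). Bad showed -0.28 ± 0.11 (adjusted p = 0.0311), which lost its call in 12 of 29 alternatives, without P0 replicate 1, 3 or 4 or P14 replicate 2 or 3 among them, and turned to 0.19 on the deposited values. Hrk, a BH3-only gene known from neurons, rose by 0.47 ± 0.13 (adjusted p = 0.00570), with P0 libraries at 33.0 to 42.2, P14 libraries at 39.6 to 60.4 and P28 libraries at 46.9 to 53.2. Bok, an effector-like relative of Bax, fell by 1.85 ± 0.16, from 49.6 to 67.7 at P0 to 13.8 to 21.8 at P14. Between P14 and P28 0 of the 11 changed with limma, edgeR or DESeq2, beside 18.3% of all genes tested with limma. At an unadjusted p under 0.05 1 was lower, and without P14 replicate 2 Bok rose and Bnip3l fell.

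Most genes for mitochondrial proteins that act in cell death rose. Of 8 genes 6 rose from P0 to P14, with a median of 0.69, while Aifm1 (0.28, adjusted p = 0.112) and Opa1 (-0.23, adjusted p = 0.123) did not pass. The largest rise was that of Endog, a mitochondrial nuclease, by 1.47 ± 0.27 from a P0 mean of 0.982 scaled CPM. Cycs, cytochrome c itself and also a carrier of the respiratory chain, rose by 0.80 ± 0.10 (adjusted p = 1.25e-05), from 24.9 to 28.4 at P0 to 38.6 to 52.9 at P14. It fell by 0.47 ± 0.10 from P14 to P28 (adjusted p = 0.00762), when its libraries lay at 31.4 to 35.5. It was the 1 gene of the list called there, against 2 without P14 replicate 2, when Vdac1 was called too, 3 with DESeq2 or library-total scaling and 4 on the deposited values. Falls were called for 9.09% of all genes tested in that step.

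Of the caspase inhibitors 6 of 9 listed were tested, of which 2 rose and 3 fell from P0 to P14, beside 34.4% rising and 34.5% falling of all genes tested. Xiap, which binds caspase-9, was at 70.8 to 113 scaled CPM at P0 and 32.5 to 63.3 at P14, a fall of 0.81 ± 0.20 (adjusted p = 0.00286) that lost its call on the deposited values (adjusted p = 0.164). Birc5, survivin, a gene of dividing cells, had the largest fall (-1.53 ± 0.21). Naip1 had the largest rise (1.41 ± 0.27), but its P0 mean of 0.211 scaled CPM was near the level that 3 reads give, and it shares sequence with other Naip genes, so its counts are uncertain. Birc6 was the 1 gene called from P14 to P28, where it rose by 0.47 ± 0.13 (adjusted p = 0.0231), a call lost in 5 of 29 alternatives, without P28 replicate 1, 3 or 4 among them and on the deposited values. Rises were called for 9.22% of all genes tested in that step.

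Of 17 upstream regulators tested, 4 rose and 8 fell from P0 to P14, with a median of -0.27. On the deposited values 8 rose and 6 fell, and without P14 replicate 2 5 rose and 9 fell. Of all genes tested, 34.4% rose and 34.5% fell in that step. Trp53, which encodes p53 and so drives Bax, Bbc3 and Pmaip1 in damaged cells, was at 56.5 to 68.4 scaled CPM at P0, and lower in every later library, at 16.1 to 19.0 (P14) and 18.9 to 21.7 (P28). It fell by 1.76 ± 0.10 from P0 to P14 (adjusted p = 3.55e-09). Trp73, its relative, had the largest fall of the list (-2.63 ± 0.20), and Mapk9, a JNK kinase, the largest rise (0.58 ± 0.09). After P14 5 rose and 1 fell (3 and 2 on the deposited values, and 5 and 2 without P14 replicate 2). The share of all genes tested from P14 to P28 was 9.22% rising and 9.09% falling. Jun, the transcription factor that JNK activates, rose most, by 0.86 ± 0.13, from 27.8 ± 1.81 (SD, n = 4) to 51.0 ± 7.26 scaled CPM. Mapk8 was the 1 that fell (-0.29 ± 0.09, adjusted p = 0.0400), a call lost in 13 of 29 alternatives, among them without P0 replicate 2 or 3, P14 replicate 3 or 4 or any 1 P28 library.

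All 9 tested genes of the death receptor pathway fell from P0 to P14, with a median of -0.996. Of these, 8 did so with edgeR, DESeq2 or library-total scaling and 6 on the deposited values. The largest fall was that of Ngfr, the p75 neurotrophin receptor, from 21.9 to 31.7 scaled CPM at P0 to 0.715 to 2.16 at P14 (-3.80 ± 0.24, adjusted p = 1.09e-08). Between P14 and P28 0 changed with limma, edgeR or DESeq2, beside 18.3% of all genes tested with limma. At an unadjusted p under 0.05 2 were higher, and without P14 replicate 2 Casp8 and Tnfrsf1a fell. Of 10 survival signalling genes 2 rose and 6 fell from P0 to P14, beside 34.4% rising and 34.5% falling of all genes tested. Without P14 replicate 2, 1 of these 10 rose. Bdnf, a neurotrophin, rose by 2.96 ± 0.21 from 3.17 ± 0.62 to 28.5 ± 7.44 scaled CPM (SD, n = 4). Akt1, a kinase that restrains BAD, had the largest fall (-1.80 ± 0.09), from 334 ± 18.2 to 96.0 ± 11.9. In the later step the 1 rise was that of Bdnf (0.67 ± 0.21, adjusted p = 0.0416) and the 1 fall that of Ntf3 (-0.62 ± 0.19, adjusted p = 0.0357), lost in 13 and 10 alternatives. Of all genes tested, 9.22% rose and 9.09% fell in that later step. The call of Bdnf was lost without P0 replicate 2 or 4, P14 replicate 1 or 2 or any 1 P28 library, and that of Ntf3 without P14 replicate 3 or 4 or P28 replicate 1, 2 or 3.

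**Figure D4:**
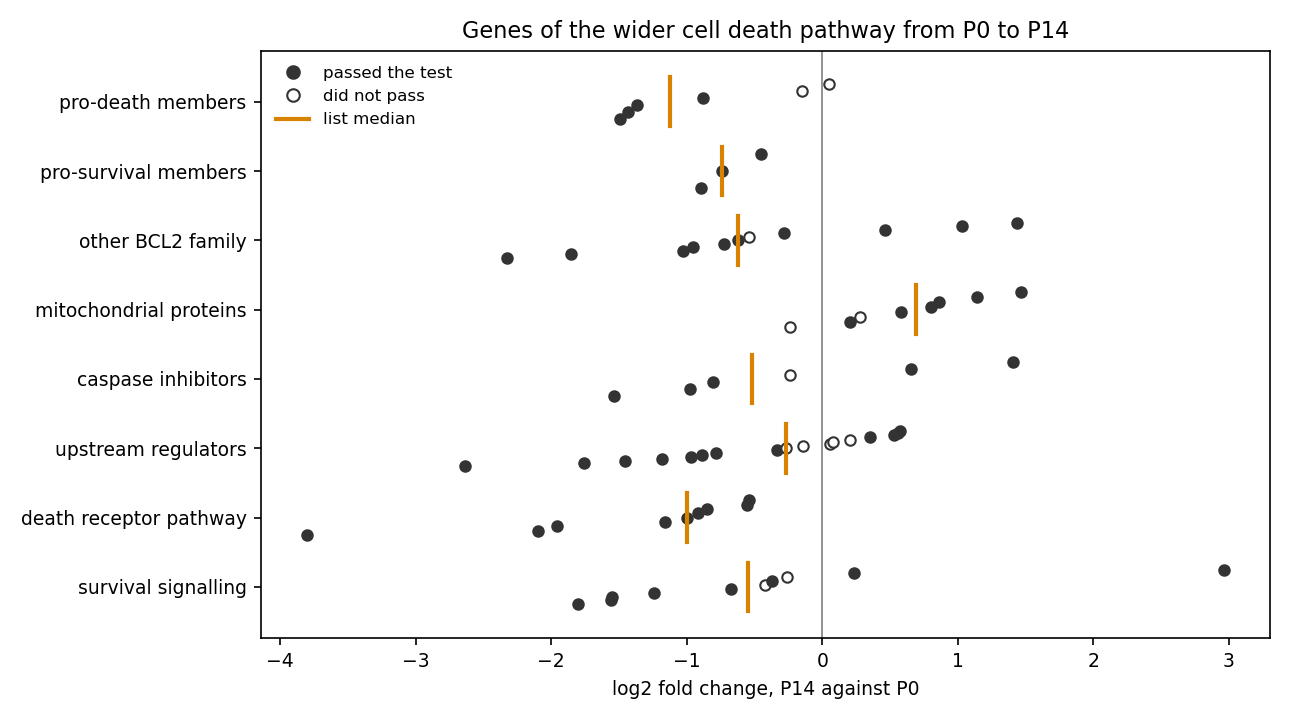
Log2 difference between P14 and P0 of every tested gene of the members and of 6 other pathway lists (points, filled where the test was passed), with the median of each list. The mitochondrial list lies mostly above 0 (median 0.69) and the death receptor list wholly below it (median -0.996), with Ngfr its lowest point at -3.80.

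Markers of cell types and of maturity moved with age as well, and the gene named for each list is the one with the highest mean over the 12 libraries. Summed markers of immature neurons, among them Tubb2b, were at 11066 to 12865 scaled CPM at P0, against 1265 to 1671 at P14 and 937 to 1015 at P28. Of these 8 of 8 fell from P0 to P14. Progenitor and cell cycle markers, among them Vim, went from 495 to 669 to 99.1 to 156 and 88.2 to 111, with 11 of 13 falling and 1 rising, and vascular markers, among them Col4a1, from 1220 to 2197 to 202 to 342 and 143 to 183, with 9 of 9 falling. Excitatory neuron markers, among them Slc17a7 (means of 129, 1444 and 2008), were at 1939 to 2205, 2417 to 3523 and 3937 to 4239. From P0 to P14 2 of 11 rose and 6 fell (8 without P14 replicate 2), beside 34.4% rising and 34.5% falling of all genes tested.

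Glial markers were present in the captured nuclei. Oligodendrocyte markers, among them Mbp, rose in 8 of 8 genes, from 80.2 to 92.1 summed at P0, where Opalin was at 0 in all libraries, to 959 to 2370 at P14 and 1763 to 2867 at P28. Astrocyte markers, among them Slc1a2, went from 534 to 716 to 1452 to 2735 and 1669 to 1825, with 5 of 8 rising. Microglial markers, among them Csf1r, were at 34.5 to 51.7, 58.1 to 111 and 85.6 to 101, with 8 of 9 rising. Inhibitory neuron markers, among them Gad1 (means of 100, 110 and 126), were at 406 to 424, 225 to 362 and 298 to 390. From P0 to P14 2 of 10 rose and 4 fell (4 and 4 without P14 replicate 2). Oligodendrocyte precursor markers, among them Olig1 (means of 33.9, 41.6 and 51.6), were at 147 to 173, 112 to 217 and 115 to 175. Of these, 2 of 6 rose and 2 fell from P0 to P14 (3 and 2 without P14 replicate 2), so neither sum stands for all its genes. The share of all genes tested was 34.4% rising and 34.5% falling. The part of these shifts in the changes of the members was not tested, and fewer nuclei of a kind cannot be told apart from less RNA per nucleus.

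For each member the gene with the most similar profile over the 12 libraries was sought among 12045 genes with a mean of 5 or more scaled CPM, by the root mean square difference of centred log2 values. The closest likeness was that of Bcl2l1 with Lhfpl4, at 0.0373. Mcl1 was most like Ganab (0.0664), Bax most like Zfyve19 (0.0861), Casp9 most like Prrc1 (0.0958) and Bak1 most like Mydgf (0.1002). The remaining pairs were Bcl2 with Khnyn (0.129), Bcl2l11 with Lzic (0.134), Apaf1 with Rev3l (0.141) and Bbc3 with St6galnac3 (0.189). A smaller value means a closer match, and genes that change little can match closely by having little to differ in.

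The RefSeq positions (GRCm38.p6) were chr1:106538176-106714290 for Bcl2, chr2:152758732-152833803 for Bcl2l1, chr3:95656944-95663179 for Mcl1, chr7:45461695-45466903 for Bax, chr17:27019812-27028627 for Bak1, chr2:128126038-128162547 for Bcl2l11, chr7:16308398-16318334 for Bbc3, chr10:90989311-91082743 for Apaf1 and chr4:141793612-141815978 for Casp9. Besides Bak1, the spans of Bcl2 (with Mir3473f and Gm37053), Bcl2l1 (with Cox4i2 and Gm32211), Bcl2l11 (with Acoxl), Apaf1 (with Ikbip and Gm25390) and Casp9 (with Cela2a) share bases with other genes. Of these, Cox4i2, Acoxl and Cela2a averaged at most 1.65 scaled CPM at any age, and Ikbip 5.33 to 7.24. The strand used in counting was not given in the sources used here.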

How the data were processed

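RNA was isolated and TruSeq stranded mRNA libraries were made, per the labels' protocols. The deposited values are a signal, normalized read counts in 1 table per age; the submitters' processing notes name DESeq2 and mm10. For aligner, counter, strand, annotation and filters, names were not given in the sources used here. Every value was a whole multiple of its library's step within 0.05 reads, which gave the reads.

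Columns were rescaled to CPM over the 25834 shared genes, then by a median-of-ratios factor (0.936 to 1.04). Genes reaching 1 scaled CPM in 4 or more libraries were tested with limma 3.58.1 (R 4.3.3; trend, robust, age as factor, 12 libraries, two-sided) on log2(scaled CPM + 0.5), a scale that understates changes of low genes. Adjustment was by Benjamini and Hochberg, with a threshold of 0.05. The fit was checked on simulated data in which few genes changed, all genes had the same dispersion and no library stood apart. That check does not cover data such as these, where most genes changed. The 29 alternatives included edgeR 4.0.16 and DESeq2 1.42.0 on the recovered reads. Other pathway lists were described by their counts, their most changed members and genes fixed by name; the list of caspases and nuclease genes is not reported here. Exon lengths came from an older annotation (GENCODE vM1, NCBIM37), used for lengths only, and positions and promoters from RefSeq (GRCm38.p6); all 9 members matched. Members, lists and tests were chosen with earlier results of these data known. Of the columns in the tables, 0 lacked a matching sample.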

Additional observations from a re-analysis of the deposited data

Results flagged for a closer look

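Of 27 sets of 4 libraries (9 members at 3 ages), 1 held a library whose distance from its nearest neighbour was large against the range of the set, where chance alone gives about 1 in 20. For Mcl1 at P14, replicate 4 was at 102.6 scaled CPM, while the other 3 libraries were within 94.7 to 95.5. All 4 values lay below every P0 library.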

How the results depend on the processing

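The 7 falls from P0 to P14 were called in each leave-one-out fit (7 to 7), and 7 to 8 members fell from P0 to P28. The later step was less stable: leaving out 1 library gave 0 to 2 falling members (0 without P28 replicate 1 or 2, 1 without P28 replicate 3 or 4 or P14 replicate 1 or 4) and 0 to 1 rising (Bbc3, without P14 replicate 2). From P14 to P28, 1 member fell on reads thinned to a common depth and 0 without both merged libraries (fewer samples), while library weights gave 4 falling and 1 rising, for which the cause was not tested.

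On the deposited values without rescaling, 2 members rose from P0 to P14, Bax and Bak1 (0.32), and Bcl2l1 was at 0.028; from P14 to P28 Mcl1 was at -0.15 and Casp9 at -0.14. Each table then keeps its own scale, and over all genes 8495 rose and 3190 fell from P0 to P14 (5412 and 5436 on the common scale). From P14 to P28 this gave 672 and 3858 (1450 and 1431), and from P0 to P28 7148 and 4155 (5610 and 5597), with a median shift of 0.267.

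Bax, never called on the common scale, changed sign for P14 against P0 with library weights (-0.10) and without P14 replicate 2 (-0.13). For P28 against P14 it did so with weights (0.19) and without P14 replicate 2 (0.18), P28 replicate 1 (0.02) or P28 replicate 3 (0.03), and for P28 against P0 without P28 replicate 2 (-0.0052). With 1 library left out at a time Bax ran from -0.13 to 0.15, -0.10 to 0.18 and -0.0052 to 0.11 in the 3 comparisons.

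Replicate numbers did not pair the libraries. The mean of each gene at each age was first subtracted, so these are correlations of what remained and not of whole profiles. Same-numbered libraries correlated at -0.513 to 0.357 on these values, over 0.1 in 3 of 12 pairs. In the same values 0 of 12 libraries correlated best with their own number in each other age. With the replicate number as a block, 7 members fell from P0 to P14, 3 from P14 to P28 (Apaf1 joined, adjusted p = 0.0460) and 8 from P0 to P28, and 0 rose. The lowest member value rested on 78 reads, and at a common depth Bak1 lost its call from P14 to P28 (adjusted p = 0.0544).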
